A study of Homo sapiens with 17 samples.

Results

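The SR splicing factor genes described here are SRSF1, SRSF2, SRSF3, SRSF5, SRSF6, SRSF7, SRSF11, TRA2A and TRA2B. Their sites are the rows of 4 tables of RNA polymerase pausing times that lie on the same strand inside the GENCODE release 29 (GRCh38) span of 1 of these 9 genes. The spans held 457 distinct sites of the 158141 in the 4 tables together. With sarkosyl they held 143 of the 48566 sites of replicate 1 and 139 of the 47713 of replicate 2. Without sarkosyl they held 215 of 66089 and 127 of 41769. Of the 457 sites, 336 were listed in 1 table, 85 in 2, 26 in 3 and 10 in all 4.

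All values come from HEK293 cells, an established line derived from human embryonic kidney, with no other genotype or treatment named for the groups used here. In time-variant precision run-on sequencing, polymerases engaged on the DNA of permeabilised cells add labelled nucleotides for a chosen time, and the 3′ end of each new RNA marks a polymerase position. Run-on lasted 0.5, 2, 8 or 32 min in a buffer with sarkosyl, a detergent that removes proteins bound to DNA, or in the same buffer without it, with 2 replicates of each time and so 8 libraries per buffer. Each table is taken to hold 1 replicate of 1 buffer, fitted over its run-on times. The labels do not say whether replicates came from separate cultures, so their spread may be technical.

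SR proteins bind exonic enhancer sequences in new transcripts and recruit the splicing machinery. Many of them regulate their own level: at high protein level, splicing includes a poison exon, which carries an early stop codon and sends the RNA to nonsense-mediated decay. Retention of an intron can also keep a transcript from making protein. RNA polymerase II often pauses shortly after the start of a gene and slows again near its end, and splicing takes place while it transcribes.

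The sites that carry the results below are shown first. The 9 sequences are those around the sites listed in all 4 tables, as far as annotated transcripts hold them (GENCODE release 29, GRCh38), in the direction of transcription, with the base at the listed position in capitals.
SRSF1, chr17:58007145-58007174, minus strand: aaggcctgttctcgagtccgCgcttttcgt
SRSF2, chr17:76737187-76737216, minus strand: ccagagctgaggaagccggcGccagttcgc
SRSF3, chr6:36594383-36594412, plus strand: gtgagtgagagagttggttgGtgttgggcc
SRSF3, chr6:36594410-36594439, plus strand: gccggaggaaagcgggaagaCtcatcggag
SRSF5, chr14:69767155-69767184, plus strand: tggcgtagacgagttaagtcCtggtctgcg
SRSF5, chr14:69769084-69769113, plus strand: aatggcttgtgatatctgatGgcttgaact
SRSF7, chr2:38751310-38751339, minus strand: cgggtgaaggtgtgtgtcagCttttgcgtc
TRA2B, chr3:185937836-185937865, minus strand: gagtcatgagcgacagcggcGagcagaact
TRA2B, chr3:185937948-185937977, minus strand: tgagcggctgggcgaccggcGcgtcgtgcg

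The base at the listed position was nearly always C or G, and which of them prevailed differed between the tables. Among the sites of these genes with a known sequence, C stood at 76.4% of 110 and 68.2% of 107 sites in sarkosyl replicates 1 and 2, against 51.7% of 143 and 18.7% of 91 in the sarkosyl-free replicates. G stood at 22.7%, 25.2%, 47.6% and 78.0% in the same order, which is used below wherever 4 values are given. Over all sites with a known sequence the percentages were alike, with C at 74.0%, 72.3%, 50.7% and 23.6%. The sarkosyl-free replicates therefore differed from each other in the bases at which sites were listed, for these genes and for all sites.

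The base one step downstream was most often T. At the SR genes it was T at 41.8%, 42.1%, 51.7% and 71.4% of sites, and over all sites at 33.3%, 37.8%, 40.9% and 53.4%. Pausing times also differed with the base at the position. The median pausing time at C sites of the SR genes was 1.98 and 1.39 with sarkosyl, against 2.52 and 2.43 without. At their G sites it was 2.42 and 1.49 with sarkosyl, against 6.12 and 12.0 without. On the log2 scale G minus C was 0.29, 0.10, 1.28 and 2.31 in the 4 tables, and 0.13, 0.10, 0.74 and 1.85 over all sites. The part of the base in the differences between buffers given below was not tested.

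The tables also differed in level and width. The pausing time is given as deposited, with no stated unit, and the number of reads per site is unknown. The median over all sites was 1.49 and 1.34 with sarkosyl, against 2.23 and 8.00 without, so sarkosyl-free replicate 2 stood apart. Over the sites of the SR genes the median was 1.91 and 1.49 with sarkosyl, against 4.63 and 10.4 without. Relative to all sites of the same table the SR genes lay higher by 0.35 and 0.15 on the log2 scale in the sarkosyl tables, a mean of 0.25 ± 0.14 (SD, n = 2). In the sarkosyl-free tables they lay higher by 1.06 and 0.38, a mean of 0.72 ± 0.48 (SD, n = 2). The SR median was above the median of all sites in each of the 4 tables. Among sites whose ratio of upper to lower quartile was at or below the median of the table, those 2 means were 0.0266 and 0.22. Without sarkosyl, SR sites with long pausing times had lower ratios than those with short times, so this filter also chose by pausing time. What the smaller means reflect was not tested.

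Replicates shared a larger percentage of sites at the SR genes than over all sites in both buffers. With sarkosyl, 65 SR sites were in both replicates, 45.5% of replicate 1 and 46.8% of replicate 2, against 37.1% and 37.8% over all sites. Without sarkosyl, 52 were in both, 24.2% of replicate 1 and 40.9% of replicate 2, against 21.0% and 33.3% over all sites. These percentages are descriptions and were not tested. Of the 457 sites, 38 were in both sarkosyl tables and neither sarkosyl-free table, and 33 the reverse. The median absolute log2 difference between replicates at a shared SR site was 0.64 with sarkosyl and 1.65 without it, beside 0.56 and 1.51 over all sites. A difference of at most 1 on the log2 scale was found at 55 of the 65 sites with sarkosyl and at 20 of the 52 without it. Values at single sarkosyl-free sites thus carry the larger replicate error.

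**Figure D1:**
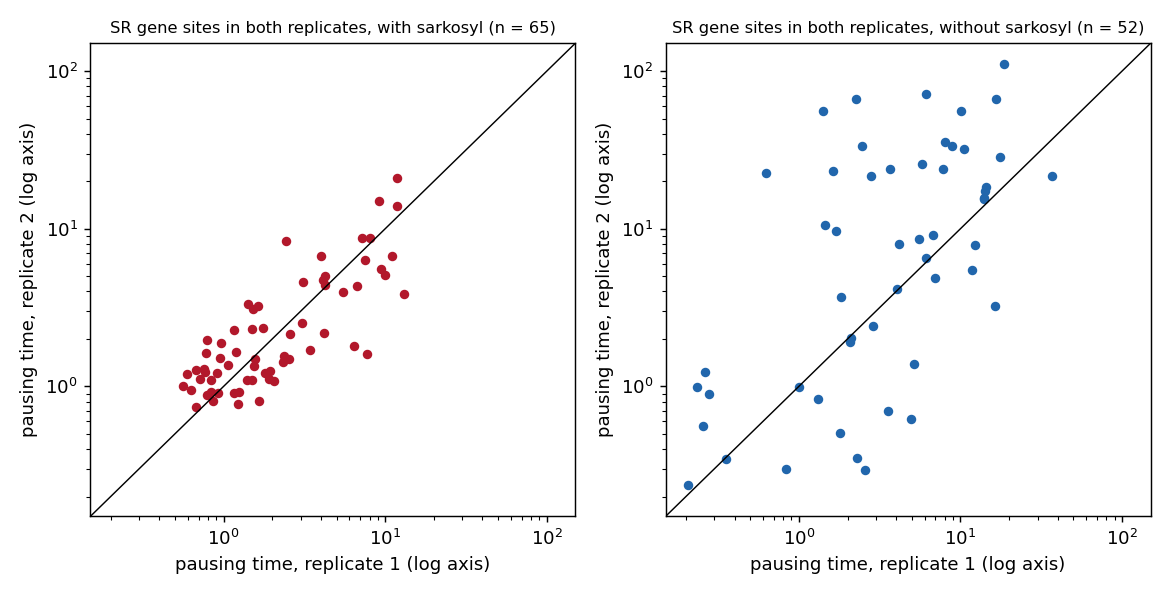
Pausing time as deposited in replicate 2 (vertical, log axis) against replicate 1 (horizontal, log axis) for each SR gene site listed in both replicates of a buffer, 65 sites with sarkosyl (left) and 52 without it (right), with the line of equal values. The points with sarkosyl lie closer to the line, with 55 of 65 within a log2 difference of 1, against 20 of 52 without sarkosyl.

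The number of listed sites per gene differed widely. SRSF6 (chr20:43457928-43464247), an SR protein with paired RNA-binding domains, had 4.11 sites per kb in each sarkosyl table and 6.01 and 2.37 per kb without sarkosyl. SRSF2 (chr17:76734115-76737374), also known as SC35, had 4.6 and 3.99 per kb with sarkosyl and 5.21 and 3.37 without it. SRSF3 (chr6:36594353-36605600), the smallest SR protein, had 2.76, 2.67, 4.27 and 2.93 per kb. Each of these 3 genes had more sites per kb than at least 98.0% of the protein-coding genes with a site, in every table.

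SRSF1 (chr17:58003360-58007346), long studied as a prototype of the family, had 2.01, 1.25, 2.26 and 1.0 sites per kb. All 19 of its distinct sites also lie in the span of AC015813.2, a gene annotated on the same strand, so they cannot be assigned to 1 of the genes. SRSF7 (chr2:38743599-38751494), which binds RNA with the help of a zinc knuckle, had 2.03, 2.28, 3.29 and 2.03 per kb. TRA2B (chr3:185915906-185938136), a human homologue of the fly splicing regulator transformer 2, had 1.12, 0.90, 1.66 and 1.03 per kb. The longest spans had the fewest sites per kb among the 9 genes, but more than 60.7% to 90.3% of the protein-coding genes with a site. SRSF5 (chr14:69726900-69772005), SRSF11 (chr1:70205682-70253052), an SR-related protein, and TRA2A (chr7:23504780-23532041), the paralogue of TRA2B, ranged from 0.0887 to 0.53 sites per kb. For SRSF5 the span of 45106 bp begins at least 40275 bp upstream of its sites. Its sites per kb are thus lowered by a long stretch without a listed site.

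Sites were concentrated in exons and near starts. Exons of the principal protein-coding transcripts made up 15.5% of the 9 spans and held 60.8%, 65.5%, 54.9% and 63.0% of the sites in the 4 tables. Over all sites inside protein-coding genes, 47.1%, 41.4%, 32.6% and 35.0% lay in such exons. The share of length in such exons was not counted for all protein-coding genes, so these percentages do not compare concentration. The first 300 bp of the spans had 11.1 and 11.4 sites per kb with sarkosyl and 8.86 and 6.64 without it. Other principal exons had 2.44, 2.64, 3.92 and 2.60 sites per kb. The rest of the spans outside the classes below, named other intron, had 0.32, 0.28, 0.60 and 0.29. It takes in introns, stretches outside the principal transcripts and the stretch upstream of the SRSF5 sites.

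**Figure D2:**
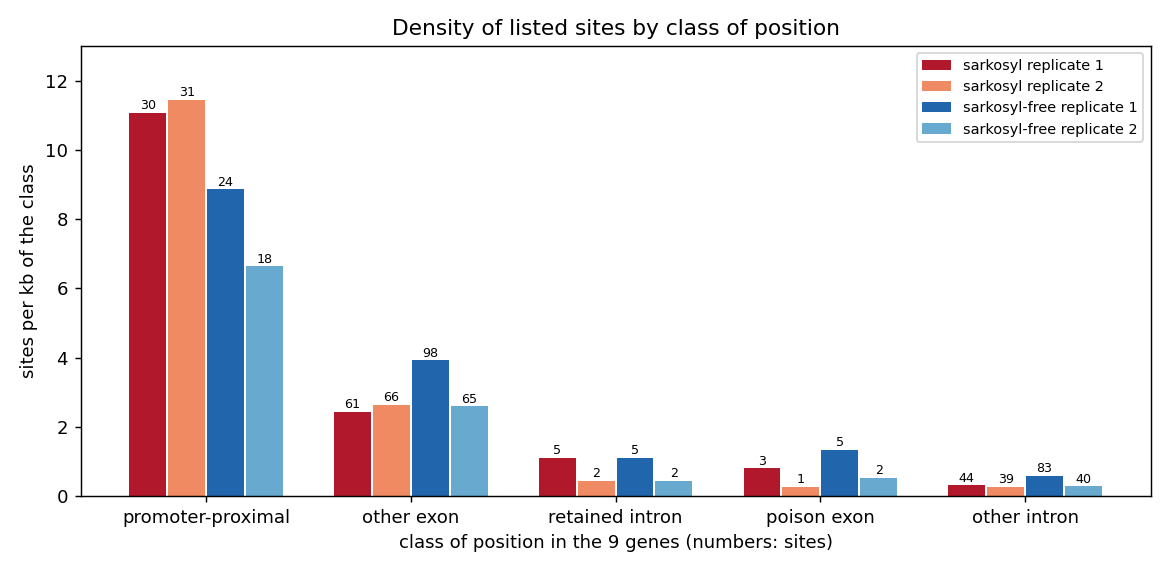
Sites per kb (vertical) in 5 classes of position within the 9 spans for the 4 tables, with the number of sites above each bar. The promoter-proximal class reaches 6.64 to 11.4 sites per kb in every table, against 0.27 to 1.34 in the poison exon class.

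Sites at poison exons were sparse and mostly listed in 1 table. By the rule used here, a poison exon is an internal exon of a transcript annotated for nonsense-mediated decay that overlaps no exon of a principal transcript. The rule found 10 such exons in SRSF3, SRSF6, SRSF7, SRSF11, TRA2A and TRA2B and none in SRSF1, SRSF2 or SRSF5, and those of SRSF7 include a nested pair with the same 3′ end. SRSF1, SRSF2 and SRSF5 had 3, 2 and 1 transcripts annotated for nonsense-mediated decay, but no internal exon of these transcripts met the rule. In or within 100 bp of them lay 3, 1, 5 and 2 sites in the 4 tables, or 0.81, 0.27, 1.34 and 0.54 sites per kb. The class made up 2.13% of the spans and held 2.1%, 0.72%, 2.33% and 1.57% of the sites. Its densities lay below those of other principal exons in each table, and above those of the class named other intron in all but sarkosyl replicate 2. With so few sites the class has no usable median.

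Of the 10 distinct sites of the class, 8 were inside a poison exon and 9 were listed in 1 table only. The sequences of the 8 are given because they place the listed polymerase positions within the alternative exons.
SRSF3, chr6:36600058-36600087, plus strand: cctggccaatcagctcagctGtttatttac
SRSF3, chr6:36600211-36600240, plus strand: attcttcctggccgtcagtcCggcagcctc
SRSF3, chr6:36600223-36600252, plus strand: cgtcagtccggcagcctcacCtcaccattt
SRSF7, chr2:38748903-38748932, minus strand: atgggccaaagagggtcgacCtgcaaactt
SRSF7, chr2:38749294-38749323, minus strand: cttgattcagaatgtcacgaGccttatgat
SRSF11, chr1:70231856-70231885, plus strand: tagtgaagcagccgacacgaGtcgttgttc
TRA2B, chr3:185931655-185931684, minus strand: aagtggggaagatgaaagaaGtcagaattt
TRA2B, chr3:185931704-185931733, minus strand: aattatcagaccagaagtccCacttgtaga

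In the 456 bp poison exon of SRSF3 (chr6:36599821-36600276) the site at 36600078 had a pausing time of 1.20 in sarkosyl replicate 2. The sites at 36600231 and 36600243 had 11.2 and 13.3 in sarkosyl replicate 1, near its 3′ end. Neither sarkosyl-free table listed a site in this exon. A site 19 bp upstream of the other SRSF3 poison exon (chr6:36598429-36598526) had 4.93 in sarkosyl-free replicate 1.

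The 276 bp poison exon of TRA2B (chr3:185931577-185931852) held a site with 6.10 in sarkosyl-free replicate 1 and another with 1.1 in sarkosyl replicate 1. The 1 site of the class found in both replicates of a buffer lay 94 bp downstream of this exon, at 185931483, with 5.13 and 1.39 without sarkosyl. The SRSF7 sites, in its 449 bp poison exon (chr2:38748898-38749346), had 1.98 and 0.22 in sarkosyl-free replicate 1. The SRSF11 site, in a 117 bp exon (chr1:70231859-70231975), had 0.39 in sarkosyl-free replicate 2. No table listed a site in or within 100 bp of the poison exons of SRSF6 or TRA2A.

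Retained introns held 9 distinct sites, 5, 2, 5 and 2 in the 4 tables. A retained intron here is an intron of a principal transcript covered whole by an exon of a transcript of that type, and there were 8 in SRSF3, SRSF5, TRA2A and TRA2B. The only one of these sites listed in all 4 tables was in SRSF5 at 69769104, in the intron at chr14:69768897-69769181. Its pausing time was 1.66 and 0.81 with sarkosyl, against 0.25 and 0.56 without, so the buffers did not overlap. In the next intron of SRSF5 (chr14:69769252-69770466), the site at 69769874 had 7.52 and 6.33 with sarkosyl and was listed in neither sarkosyl-free table. In the retained intron of SRSF3 at chr6:36601795-36601961, the site at 36601908 had 6.41 in sarkosyl replicate 1 and 6.94 in sarkosyl-free replicate 2.

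**Figure D3:**
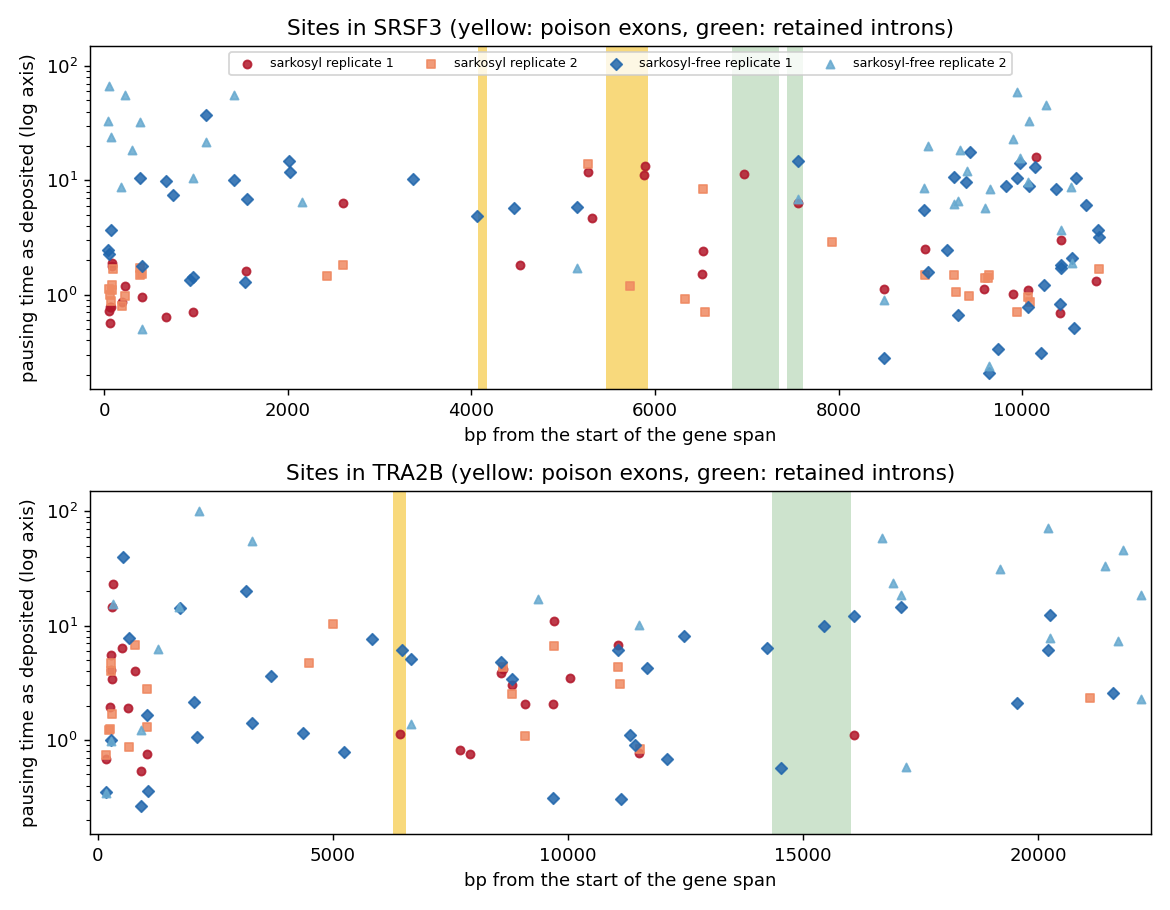
Pausing time as deposited (vertical, log axis) of every listed site by its distance from the start of the gene span (horizontal, bp) in SRSF3 and TRA2B, with poison exons in yellow and retained introns in green. In SRSF3 the sites crowd at the start and, without sarkosyl, in the last exon. In TRA2B 46 of the 80 distinct sites lie in the first intron.

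Sites were spread unevenly along SRSF6, SRSF3 and TRA2B. In SRSF6 the last exon, of 3545 bp or 56.1% of the gene's length, held 76.9%, 80.8%, 73.7% and 80.0% of the gene's sites in the 4 tables. Median pausing times there were 1.88 and 1.75 with sarkosyl, against 7.28 and 10.9 without. In SRSF3 the last exon, of 3639 bp or 32.4% of the length, held 29% and 40% of the sites with sarkosyl and 58.3% and 57.6% without it. The sarkosyl-free percentages were both above the sarkosyl ones. In TRA2B the first intron, of 11090 bp or 49.9% of the length, which holds the poison exon, had 68.0%, 60.0%, 59.5% and 34.8% of the sites. Sarkosyl replicate 1 in the SRSF3 exon and sarkosyl-free replicate 2 in the TRA2B intron thus lay below the share of length.

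Among SR sites in both sarkosyl-free replicates, the shortest and the longest mean log2 pausing time lay in last exons. The shortest was in SRSF3 at 36603996, with 0.21 and 0.24, and the longest in SRSF6 at 43461972, with 18.5 and 111.1. Both are shown because they mark the range without sarkosyl.
SRSF3, chr6:36603976-36604005, plus strand: acttaggtgacatacagtccCagttggcag
SRSF6, chr20:43461952-43461981, plus strand: tttgtcatgtggaaatggaaGtagcctctt
With sarkosyl, the longest time in both replicates was 11.8 and 20.8, in the first intron of TRA2A at 23531773, 268 bp from the start. The same site had 0.36 in sarkosyl-free replicate 1 and was not listed in replicate 2. The longest in SRSF3 with sarkosyl lay at 36599619, in the intron just upstream of the 456 bp poison exon, with 11.8 and 13.9.

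Gene starts gave different pictures in different genes. In the first exon of SRSF3 the 6 sites of sarkosyl replicate 1 ranged from 0.56 to 1.90 and the 6 of replicate 2 from 0.88 to 1.67. The 3 sites of sarkosyl-free replicate 1 ranged from 2.26 to 3.65 and the 3 of replicate 2 from 23.8 to 66.7. As deposited, every first-exon value of SRSF3 was thus higher without sarkosyl than with it. These values are not centred, and the medians over all sites were also higher without sarkosyl (2.23 and 8.00, against 1.49 and 1.34). In the first exon of TRA2B the order was the other way for the medians. They were 3.73 and 1.45 over 6 sites each with sarkosyl and 0.59 and 0.58 over 2 sites each without it. The first exon of SRSF1 had medians of 8.00 and 1.60 with sarkosyl, against 2.25 and 2.55 without, and the tables overlapped.

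Over all 9 genes together, sites in the first 300 bp had medians of 1.78 and 1.21 with sarkosyl, against 2.38 and 15.1 without. Minus the median of the other SR sites, on the log2 scale, this gave -0.21 and -0.31 with sarkosyl and -1.18 and 0.57 in the sarkosyl-free tables. The sarkosyl-free replicates had opposite signs. SRSF5 had no site in this class, because its annotated span begins at least 40275 bp upstream of its sites. With the start of any annotated transcript in place of the span's start, the sarkosyl mean was -0.0782, against -0.26 for the span's start. With a window of 150 bp it was -1.01, and the sarkosyl-free mean turned from -0.31 to 0.21.

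The buffers were compared at the 10 SR sites listed in all 4 tables, in a limma fit over the 2967 such sites of the series, after each table was centred on its median over them. With Benjamini-Hochberg adjustment, limma called 0 of the 10 sites at 0.05, and 0 of 2967, a percentage of 0. At an unadjusted limma p under 0.05 there were 3 of the 10, 2 longer and 1 shorter with sarkosyl, beside 23.2% of all sites (12% longer and 11.2% shorter). After centring, both sarkosyl tables lay above both sarkosyl-free tables at 4 SR sites and below them at 2, beside 31.6% and 25.7% of all sites. The median log2 difference, sarkosyl minus sarkosyl-free, was 0.82 over the 10 sites and 0.22 over all.

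The differences depended on the sarkosyl-free replicates. Without sarkosyl-free replicate 1 the median log2 difference was 1.23 over the 10 sites and 0.35 over all. Without sarkosyl-free replicate 2 it was -0.30 over the 10 and 0.14 over all. With 1 table left in a buffer, the spread comes from the other buffer alone, so calls and p-values of such fits are not given. With all tables, quantile normalization gave 1 call among the 10, beside 158 of all 2967 sites. Normal scores of ranks gave 2 among the 10, beside 231 of all 2967.

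The largest difference of the 10 was at the SRSF1 site at 58007154, in its first exon, 192 bp from the start. The pausing time there was 9.17 and 14.9 with sarkosyl, against 0.83 and 0.30 without. The reciprocals of the authors' rate quartiles ran from 5.38 to 14.9 and 7.52 to 28.6 with sarkosyl. Without it they ran from 0.37 to 1.55 and 0.15 to 0.58. The buffers did not overlap, and the position is shared with AC015813.2. The log2 difference was 4.69 (SE 0.87; limma adjusted p = 0.155 by Benjamini-Hochberg). This site passed 0.05 after quantile normalization (limma adjusted p = 0.042) and on normal scores of ranks (0.0243). The difference was 5.48 without sarkosyl-free replicate 1 and 3.90 without sarkosyl-free replicate 2. It was 5.01 without sarkosyl replicate 1 and 4.37 without sarkosyl replicate 2.

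At SRSF3 both first-exon sites went the other way. At 36594403, 50 bp from the start, the times were 0.72 and 1.11 with sarkosyl, against 2.26 and 66.7 without. The log2 difference was -3.64 (SE 1.58; limma adjusted p = 0.237). It was -6.02 without sarkosyl-free replicate 1 and -1.26 without sarkosyl-free replicate 2. At 36594430, 77 bp from the start, the times were 0.79 and 0.88 with sarkosyl, against 3.65 and 23.8 without. There the log2 difference was -3.35 (SE 1.04; limma adjusted p = 0.173). It was -4.65 without sarkosyl-free replicate 1 and -2.06 without sarkosyl-free replicate 2. At both sites the sarkosyl-free tables lay above the sarkosyl tables, but far apart from each other. At the remaining SRSF3 site, 36594764 in the first intron, the times were 0.95, 1.52, 1.80 and 0.51, and the buffers overlapped.

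TRA2B had its closest replicates without sarkosyl at 2 sites of the first exon. At 185937845, 291 bp from the start, the times were 5.49 and 3.98 with sarkosyl, against 1.0 and 0.99 without. The log2 difference was 2.37 (SE 0.72; limma adjusted p = 0.173). It was 2.44 without sarkosyl-free replicate 1 and 2.30 without sarkosyl-free replicate 2. At 185937957, 179 bp from the start, the times were 0.68 and 0.75 with sarkosyl, against 0.35 and 0.35 without, a log2 difference of 1.16 (SE 0.71; limma adjusted p = 0.357). That difference changed sign to -0.22 after quantile normalization.

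Of the other sites, the SRSF5 site in its retained intron differed by 1.75 on the log2 scale (SE 0.83; limma adjusted p = 0.268), and by 0.79 after quantile normalization. The SRSF5 first-exon site at 69767175 had 0.84, 0.92, 1.31 and 0.83, with overlapping buffers. The SRSF2 site at 76737196 had 1.76 and 2.34 with sarkosyl, against 2.29 and 0.35 without, and the SRSF7 site at 38751319 had 0.93 and 0.90 with sarkosyl, against 4.95 and 0.62 without. At both, the buffers overlapped and the sarkosyl-free replicates lay farther apart than the sarkosyl ones.

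**Figure D4:**
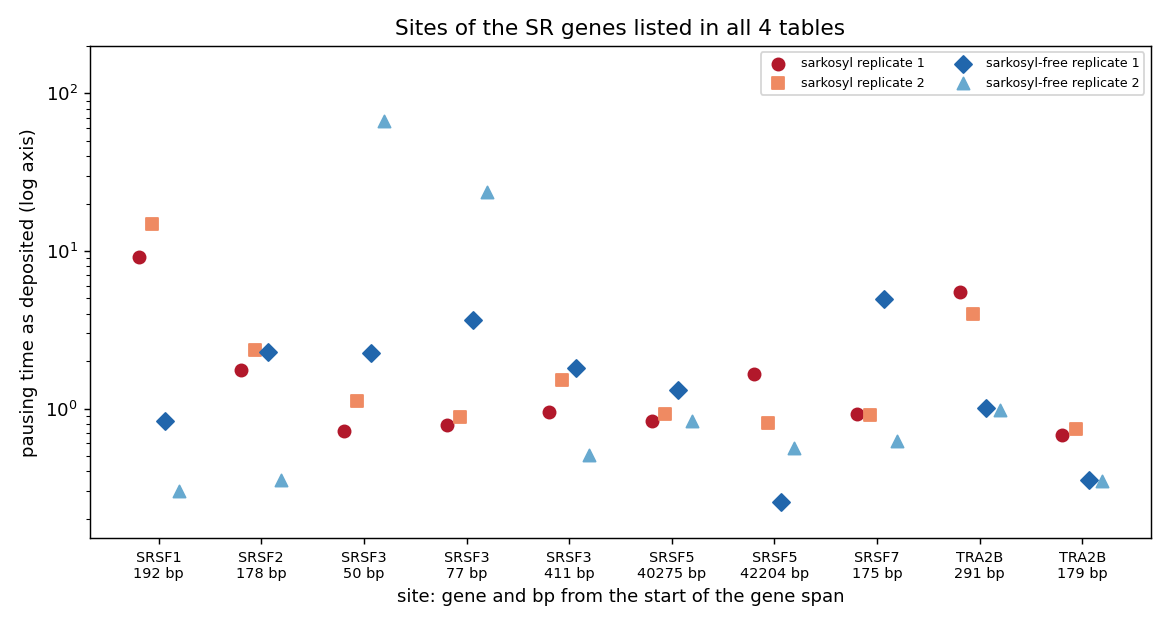
Pausing time as deposited (vertical, log axis) at the 10 SR gene sites listed in all 4 tables, each site named by its gene and its distance in bp from the start of the gene span. At the SRSF1 site the sarkosyl values of 9.17 and 14.9 lie above the sarkosyl-free values of 0.83 and 0.30, and at the SRSF3 sites 50 and 77 bp from the start the order is the reverse.

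Medians per gene used all sites and so covered each of the 9 genes. In a limma fit over 1562 protein-coding genes with at least 3 sites in every table, Benjamini-Hochberg adjustment left 0 of the 9 genes and 0 of all genes at 0.05, a percentage of 0. At an unadjusted limma p under 0.05 there was 1 of the 9, longer with sarkosyl, beside 9.03% of all genes (7.55% longer and 1.47% shorter). Both sarkosyl tables lay below both sarkosyl-free tables in 5 of the 9 and above them in 2, beside 18% and 22.9% of all genes. The median log2 difference was -0.35 over the 9 genes and 0.11 over all. These directions are relative to the median gene, since without centring the median over all genes was -1.49.

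SRSF5, an SR protein whose gene responds to insulin in liver cells, had the 1 unadjusted call. Its median pausing time was 2.40 and 0.95 with sarkosyl, against 0.82 and 0.79 without, over 10, 8, 6 and 4 sites. The centred log2 difference was 2.51 (SE 0.82; limma adjusted p = 0.467). It was 0.95 after quantile normalization, 0.91 without centring and 1.58 without sarkosyl-free replicate 2. Without sarkosyl it stood at -1.44 and -3.35 on the log2 scale relative to the median of all sites, and 16.1% and 2.70% of genes with at least 3 sites had a lower median.

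The 5 genes SRSF2, SRSF3, SRSF6, SRSF7 and SRSF11 were those whose centred sarkosyl values lay below the sarkosyl-free ones. SRSF6 had medians of 1.88 and 1.46 with sarkosyl, against 6.85 and 12.8 without, a centred log2 difference of -0.90 (SE 0.60; limma adjusted p = 0.702). SRSF3 had 1.52 and 1.31 against 5.23 and 10.4, a difference of -0.79 (SE 0.59; limma adjusted p = 0.72). SRSF11 had 1.1 and 1.29 against 6.76 and 8.40, a difference of -1.04 (SE 0.69; limma adjusted p = 0.703). Its sarkosyl-free replicates differed, at 1.43 and -0.06 relative to the median gene. SRSF2 had medians of 1.95, 1.64, 4.03 and 11.9 and a difference of -0.35, and SRSF7 had 1.29, 2.04, 4.13 and 13.7 and a difference of -0.62. The size of each of the 5 differences was below 2 of its standard errors. Without centring the 5 ranged from -2.64 to -1.95. Leaving out sarkosyl-free replicate 1 or 2 gave -0.45 and -1.35 for SRSF6, -0.38 and -1.19 for SRSF3, and -0.29 and -1.78 for SRSF11. The SRSF7 difference was -0.19 without sarkosyl replicate 1 and -1.04 without sarkosyl replicate 2, and that of SRSF2 was -0.19 after quantile normalization. With means in place of medians SRSF11 differed by -0.36.

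On the log2 scale relative to all sites, TRA2B had the narrowest range of the 9 genes. Its median stood above that of all sites by 1.03 and 0.99 on the log2 scale with sarkosyl and by 0.61 and 0.94 without it. With sarkosyl, 84.4% and 93.7% of genes had a lower median, and without it 70.4% and 78.7%. By this percentage SRSF2 varied less, at 65.1% and 66.9% with sarkosyl and 77.9% and 64.9% without it. SRSF1 and TRA2A, with 3 to 9 sites per table, varied widely between replicates: relative to all sites, SRSF1 stood at 2.52, 0.26, 0.87 and -1.65 in the 4 tables, and TRA2A at 2.18, -0.22, 1.20 and -0.56. For both, the buffers overlapped.

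**Figure D5:**
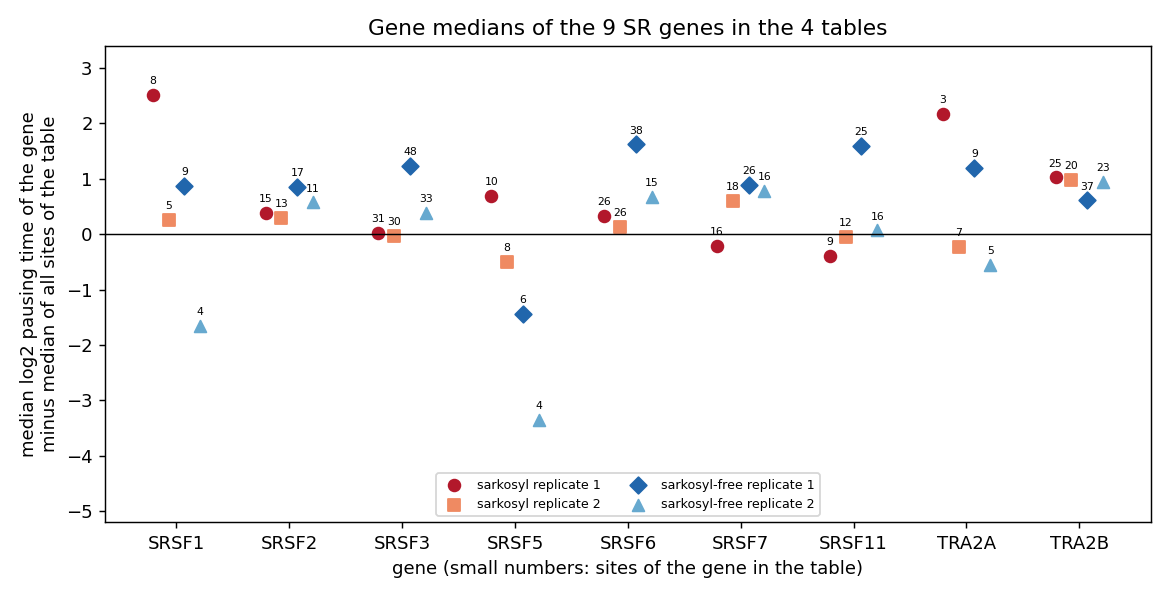
Median log2 pausing time of each gene minus the median of all sites of the same table (vertical), for the 9 genes (horizontal) and 4 tables, with the number of sites beside each point. TRA2B lies between 0.61 and 1.03 in all tables, while SRSF5 reaches -3.35 in sarkosyl-free replicate 2.

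Of 27 other genes of the SR protein network, 11 had at least 3 sites in every table. They were the SR proteins SRSF4, SRSF9 and SRSF10, the kinases CLK3 and SRPK1, the matrix-associated SRRM1, SRRM2, SON and PNN, the U1 protein SNRNP70 and the decay kinase SMG1. With Benjamini-Hochberg adjustment limma called 0 of the 11, beside 0 of all 1562 genes. Beside 9.03% of all genes, 1 of the 11 had an unadjusted limma p under 0.05. That was SRSF9, with a centred log2 difference of 1.49 (SE 0.60; limma adjusted p = 0.537). Both sarkosyl values lay above both sarkosyl-free values in 3 of the 11 and below them in 0, beside 22.9% and 18% of all genes. The median difference was 0.24, beside 0.11 over all genes.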

How the data were processed

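The authors deposited 4 tables of positions with fitted rates (a summary with mean, median and quartiles, rounded to 3 decimals) and a pausing time, per the file headers. In every row the pausing time was the reciprocal of the median. The time unit, the model, its prior and the rule for calling sites were not given in the sources used here, and the tables used here hold no read numbers. The submitters' processing notes name cutadapt 1.14, HISAT2 2.1.0, SAMtools, bedtools and the build hg38. Which libraries a table covers was inferred from table names and sample titles. All value columns used were mapped to a buffer. Of 17 listed samples, 1 treatment sample was not analysed here.

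Positions were taken to count from 1: the base profiles of the strands differed by 0.573 to 0.876 percentage points unshifted and by at least 7.31 after a shift of 1 base. Sequences of 30 bases were read from GENCODE transcripts where 1 annotated exon held them whole. A capital marks the site, after 20 bases and before 9. They were found for 318 of the 457 sites, mostly exonic.

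Analysis used R 4.3.3 with limma 3.58.1 (lmFit, eBayes) on log2 pausing time with Benjamini-Hochberg adjustment, tested on simulated data, with the rest done in pandas 2.3.3 under Python 3.11.15 and drawn with matplotlib 3.10.9. Gene medians are medians on the log2 scale, turned back. The genes, lists and tests were chosen with earlier results of these data known. Sites named singly were those in all 4 tables, the longest and shortest per gene and buffer among sites in both replicates (a few are printed), and those at poison exons. Sites in 1 table, and the SRSF3 site in a retained intron, were named after their values were seen. Alternatives covered scaling, a replicate block, filters, windows and leaving out each table. A two-sided exact permutation test of 2 tables against 2 cannot go below 0.33 and was not used.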

Additional observations from a re-analysis of the deposited data

Results flagged for a closer look

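At 4 sites and in 1 gene, both sarkosyl tables lay on one side of their own median and both sarkosyl-free tables on the other. How many of all sites and genes did so was not counted. Both sarkosyl tables lay above both sarkosyl-free tables at 31.6% of all shared sites and below them at 25.7%. For gene medians these shares were 22.9% and 18%. The items are therefore not shown to be particular to the SR genes. The SRSF1 site at 58007154 had 2.91 and 3.55 on the log2 scale with sarkosyl, against -0.67 and -2.25 without, a difference of 4.69. The SRSF3 site at 36594403 had -0.76 and -0.20 with sarkosyl, against 0.78 and 5.54 without, a difference of -3.64. The SRSF3 site at 36594430 had -0.63 and -0.54 with sarkosyl, against 1.47 and 4.06 without, a difference of -3.35. The TRA2B site at 185937845 had 2.17 and 1.64 with sarkosyl, against -0.39 and -0.54 without, a difference of 2.37. The gene median of SRSF11 had -0.39 and -0.06 with sarkosyl, against 1.60 and 0.07 without, and its centred difference was -1.04. Relative to the median gene instead of all sites, its sarkosyl-free replicate 2 lay at -0.06, on the same side as the sarkosyl tables at -0.54 and -0.17. The limma fits tested each of these differences, and after Benjamini-Hochberg adjustment none of the 5 passed 0.05.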

How the results depend on the processing

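Over the alternatives to the main counts and medians, 31 values stayed within a set limit, 11 went beyond it and 1 changed sign. The limit was the replicate spread for medians, 1.5 times the count for site counts, and a binomial interval over sites for replicate overlap. Counts of limma calls had to stay at 0. What caused the changes was not tested. Among the 10 shared sites, limma with Benjamini-Hochberg adjustment called 0 in the fit reported. It called 1 after quantile normalization (158 of all 2967 sites) and 2 on normal scores of ranks (231 of all 2967 sites). With a replicate block it called 2, the SRSF1 site and the SRSF3 site at 36594403 (161 of all 2967 sites). Deviations of same-numbered tables correlated at 0.0134 over sites and 0.0644 over genes, which gives no sign of pairing by number. The labels do not say whether same-numbered replicates were paired. For gene medians the block called 0 of 9. No alternative run with all 4 tables called a gene median, among the 9 or among all genes.

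The filter on the ratio of quartiles also chose by pausing time without sarkosyl. Under it the SR median against all sites was 0.0266 with sarkosyl and 0.22 without it. Leaving out a table gave 0.15 to 0.35 and 0.38 to 1.06. Matching within 5 bp put the sarkosyl-free overlap at 52.8% of the smaller table. A promoter window of 150 bp moved the promoter difference to -1.01 with sarkosyl and to 0.21 without it, where it had been negative. The start of any transcript gave -0.0782 with sarkosyl. A margin of 200 bp around poison exons raised the entries of that class from 11 to 18.

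Single values changed sign as follows. The TRA2B site at 185937957 went to -0.22 after quantile normalization and -0.27 on normal scores. Without sarkosyl-free replicate 1 the SRSF5 site at 69767175 went to 0.28 and the SRSF7 site to 0.75. Without sarkosyl-free replicate 2 the SRSF2 site went to -0.10 and the SRSF3 site at 36594764 to -0.50. Leaving out each table gave -0.10 to 2.72 for SRSF2, -0.50 to 1.44 for that SRSF3 site and -2.36 to 0.75 for SRSF7. Without centring the gene differences of TRA2B and TRA2A went to -1.35 and -0.92, and that of TRA2A to -0.50 without sarkosyl replicate 1 and -0.18 without sarkosyl-free replicate 2, in a range of -0.50 to 1.86.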

Other observations

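Sites of the same strand were also counted in the 5000 bp past the end of each span, outside other annotated genes of that strand, a window chosen after the data were seen. There were 62 and 64 such sites with sarkosyl and 72 and 60 without it, beside 143, 139, 215 and 127 inside the spans. Past SRSF2 there were 17, 19, 15 and 10 sites, with median pausing times of 3.16, 1.33, 4.12 and 11.9. Past SRSF3 there were 9 and 11 with sarkosyl and 22 in each sarkosyl-free table. Past TRA2B there were 12, 15, 14 and 11, with medians of 1.70 and 1.16 with sarkosyl and 1.79 and 11.0 without it. Past SRSF1 no table listed a site by this count, but AC015813.2 on the same strand covers part of that window. Within 1000 bp upstream of the starts, on the opposite strand, there were 4 and 9 sites with sarkosyl and 3 in each sarkosyl-free table.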
